A study of Mus musculus with 6 samples.

Results

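The retinoblastoma gene Rb1, its pocket protein relatives and the E2F transcription factors with their dimerisation partners were followed in mouse fetal liver that lacked Rb1. The set comprised 10 genes, and its members were taken as all probe sets that the array annotation gives to a single one of these symbols. This yielded 13 probe sets for 8 genes, out of 12422 probe sets and 8251 genes on the array. E2f6 and Tfdp2 had no such probe set and were not analysed here. The rule used no measured value, but the genes were chosen with earlier results of these data known.

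RNA came from whole livers of 6 embryos of 129sv matings at embryonic day 12.5, 3 of them Rb null and 3 wild type, and each liver was read on an Affymetrix mouse array of its own. The parents on both sides were Rb heterozygotes, and the embryos were otherwise untreated. The kind of Rb allele, the litter and the sex of the embryos are not given in the labels. Levels are MAS5 signals, a summary of each probe set on a linear scale, given as mean ± SD with n = 3 embryos per genotype. Log2 fold changes give Rb null minus wild type, ± SE, after 50.02 was added to each signal, and this scale understates the change of dim probe sets. Probe sets with a mean signal above 150.1 were tested with limma, and a probe set is called lower or higher at an adjusted p below 0.05 over all 6793 tested probe sets. Levels are not compared between probe sets, whose probes differ in binding.

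Pocket proteins bind E2F factors and hold back the activation of their target genes until cyclin-dependent kinases phosphorylate the pocket protein in late G1. The retinoblastoma protein binds mainly the activating E2Fs, while its relatives, encoded by Rbl1 and Rbl2, bind mainly repressive E2Fs such as the product of E2f5. Most E2Fs bind DNA as dimers with a DP protein, encoded by Tfdp1 or Tfdp2, whereas the atypical E2F encoded by E2f8 binds without one and represses. In the fetal liver, where most cells are dividing red cell precursors, these factors set entry into S phase, and embryos without Rb1 are known for anaemia with poorly maturing erythroblasts.

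The authors had scaled the 6 arrays to 1 trimmed mean, after which the median signal was 197.7 to 203.3 in Rb null livers and 176.6 to 186.5 in wild type livers. Log2 values of tested probe sets, which are not independent, correlated with r of at least 0.982 among embryos of 1 genotype and at least 0.966 between genotypes. Defining genes of the liver's main cells were bright, with Hba-a1 of red cells at 16316 ± 1370.4 in Rb null livers and 19147 ± 1062 in wild type livers, and Alb of hepatoblasts at 13754 ± 258 in Rb null livers and 15834 ± 825 in wild type livers. The 9 erythroid markers on the array summed to between 51101 and 55599 signal units in Rb null livers, against 62768 to 68778 in wild type livers, and 5 of the 9 were called lower. Sums of 35479 to 38151 in Rb null livers and 38376 to 41755 in wild type livers were read for 8 hepatoblast markers, with 2 lower and 1 higher. Those of macrophages (7 genes, 2 of 6 tested called higher) and megakaryocytes (4 genes, 2 of 3 tested higher) had sums without overlap, Rb null above wild type. So did those of endothelium (6 genes, 2 of 5 tested higher) and mesenchyme (7 genes, 3 of 5 tested higher). For megakaryocytes the sums were 2187 to 2581 in Rb null livers and 1388 to 1468 in wild type livers. Over all tested genes 9.50% were called lower and 13.1% higher. All Rb null embryos lay above all wild type embryos in 17.9% of single probe sets. None of the marker probe sets was at 0 in all arrays, but Adgre1, Pf4, Pecam1, Des and Pdgfrb lay below the signal filter. The mean log2 level of the erythroid list differed by -0.33 (Rb null minus wild type), and that of the hepatoblast list was higher by 0.055, opposite in sign to its sums. An exact two-sided permutation test of these means gave p = 0.1 for each of the 6 lists, the smallest that 3 against 3 allows, so none of them could pass a threshold of 0.05. In whole livers, fewer cells of a type and less RNA per cell cannot be told apart, and the part of these shifts in the values below was not tested.

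Both Rb1 probe sets, 1 of 3 Tfdp1 probe sets and 1 of 2 E2f8 probe sets were lower in Rb null livers. These 4 calls stood among 11 tested member probe sets, against 9.08% of all tested probe sets called lower. The Rb1 calls are those of the mutated gene itself, whose Rb null means (136 and 89.1) lay below the signal filter. Of the 9 tested member probe sets that are not of Rb1, 7 were not called. No member was called higher by limma, where 12.8% of all tested probe sets were, and none of the members was called higher under any of the 15 alternatives run. Of the members with a positive change none had an unadjusted p below 0.05, the smallest being 0.26 for the dim E2f3 probe set. The median log2 fold change was -0.14 over the 11 tested member probe sets and -0.05 over the 9 that are not of Rb1, against 0.02 over all tested probe sets. In 6 of the 13 member probe sets every Rb null embryo lay below every wild type embryo, a pattern that 11.2% of all probe sets show. These 6 include both Rb1 probe sets and 1 E2f1 probe set that changed by only -0.05. The opposite pattern, seen in 17.9% of all probe sets, occurred in none of the 13.

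**Figure D1:**
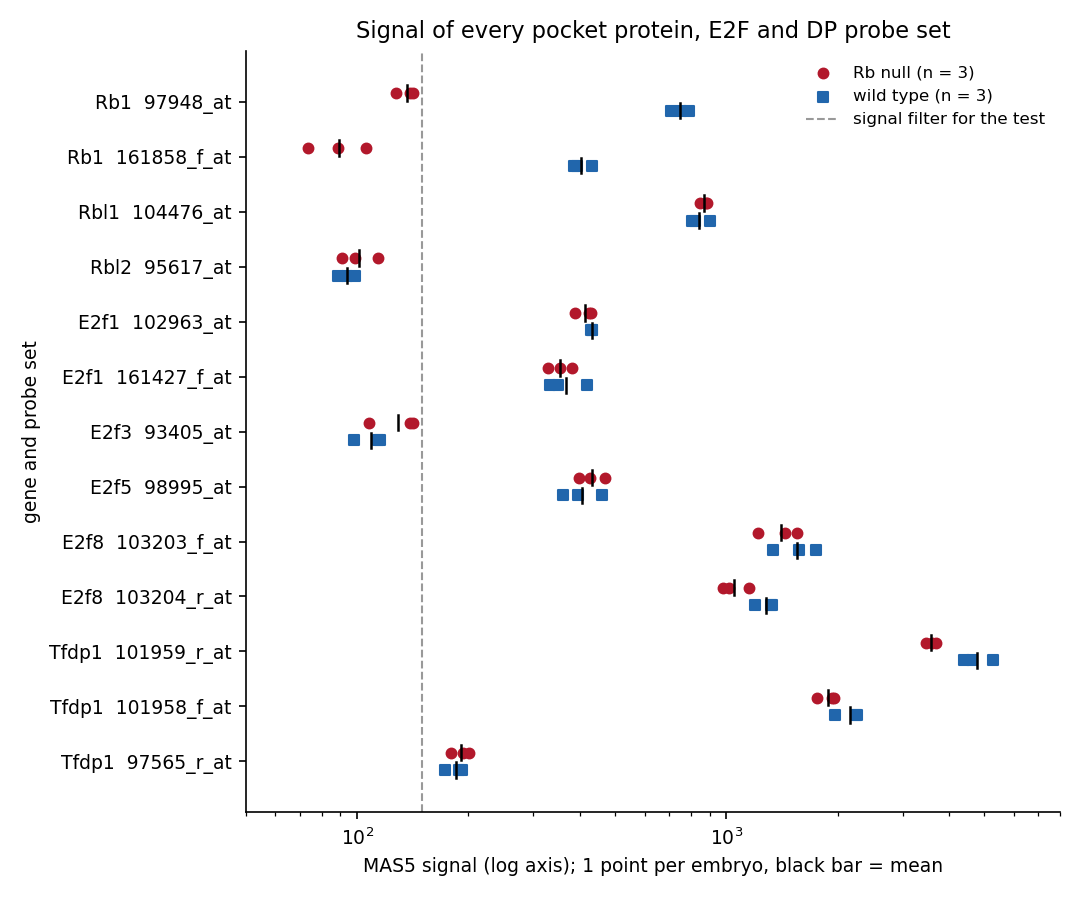
MAS5 signal (log axis) of each of the 13 member probe sets in 3 Rb null embryos (red circles) and 3 wild type embryos (blue squares), with black bars for the means and a dashed line at the signal filter of 150.1. The Rb1 points of the genotypes lie far apart, those of the upper Tfdp1 probe set lie apart by a small gap, and Rbl1, E2f5 and the dim Rbl2 and E2f3 overlap.

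Windows at listed gene starts are shown for 3 members, where E2F binding could act back on the family itself. Tfdp1 and E2f8 each had a probe set that fell, and Rbl1, known as an E2F target, did not change detectably. The windows run from 250 bases before to 50 bases after a gene start listed by RefSeq on GRCm38.p6, 5′ to 3′ along the gene. They are chr8:13338501-13338800 on the plus strand for Tfdp1, chr2:157204485-157204784 on the minus strand for Rbl1 and chr7:48881547-48881846 on the minus strand for E2f8. Capitals mark any match, on either strand, to the E2F core words TTTCGCGC, TTTCCCGC, TTTGGCGC or TTTGCCGC.
Tfdp1: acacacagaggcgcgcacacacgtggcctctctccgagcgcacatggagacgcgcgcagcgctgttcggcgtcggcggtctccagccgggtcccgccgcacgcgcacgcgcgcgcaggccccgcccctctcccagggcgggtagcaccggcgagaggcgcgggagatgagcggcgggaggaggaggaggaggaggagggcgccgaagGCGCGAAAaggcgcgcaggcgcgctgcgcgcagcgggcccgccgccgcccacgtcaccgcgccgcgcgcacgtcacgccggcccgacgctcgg
Rbl1: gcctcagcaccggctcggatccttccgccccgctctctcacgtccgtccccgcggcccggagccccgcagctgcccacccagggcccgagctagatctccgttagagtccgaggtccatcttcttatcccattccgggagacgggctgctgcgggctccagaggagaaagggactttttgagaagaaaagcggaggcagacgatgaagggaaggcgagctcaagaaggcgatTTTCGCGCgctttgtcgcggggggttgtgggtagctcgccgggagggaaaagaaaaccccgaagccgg
E2f8: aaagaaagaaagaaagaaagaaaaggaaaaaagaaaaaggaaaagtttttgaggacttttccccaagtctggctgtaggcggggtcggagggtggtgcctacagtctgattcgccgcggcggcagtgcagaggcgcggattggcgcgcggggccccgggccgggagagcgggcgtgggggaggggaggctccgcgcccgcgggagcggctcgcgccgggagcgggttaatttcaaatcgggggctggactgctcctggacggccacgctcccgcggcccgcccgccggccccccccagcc
The Rbl1 window holds TTTCGCGC starting 18 bases before the gene start. The Tfdp1 window holds the reverse complement of the same word, GCGCGAAA, starting 43 bases before the start, and the E2f8 window holds none of the words. That E2f8 window lies wholly inside the gene, whose 5′ end the gene table puts at 48882073. Bases before that end were not scanned. Of the 8 measured members, 6 had a listed window, and Rbl1, Tfdp1 and E2f3 held a word in at least 1 of their windows. The E2f1 window (chr2:154569377-154569676, minus strand) also lies inside its gene, whose 5′ end is at 154569892. The count therefore does not cover the bases before the 5′ ends of E2f1 and E2f8. Among all 32851 windows, 2.26% held a word, as did 2.60% of all 27025 genes in at least 1 of theirs. For the 4297 tested genes with a window the share was 5.38%. A match describes these letters and not binding.

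Rb1, on chromosome 14 (73192858 to 73325951, GRCm38.p6), was far lower in the Rb null livers. Probe set 97948_at read 138.8, 141.6 and 127.4 in the Rb null embryos, against 790.6, 753.6 and 706.2 in the wild type embryos. The groups lay far apart, with all Rb null values under the signal filter. The log2 fold change was -2.10 ± 0.09 (95% interval -2.30 to -1.91, adjusted p = 7.8e-06), and no tested probe set on the array fell by more. The second Rb1 probe set, 161858_f_at, read 73.4, 105.3 and 88.7 in Rb null embryos and 394.2, 385.4 and 433.3 in wild type embryos. Here too the groups did not overlap, at -1.71 ± 0.12 (adjusted p = 1.5e-04).

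What remained of the Rb1 signal differed little among the Rb null embryos. On 97948_at embryos 1, 2 and 3 kept 18.5%, 18.9% and 17.0% of the wild type mean, and on 161858_f_at they kept 18.2%, 26.0% and 21.9%. These remainders lie below the filter, which does not measure background. They may be partly or wholly background, and this was not tested. Where the probes lie relative to the mutated part of Rb1 is not stated in the labels. The low signal therefore goes with the genotype labels but does not show which part of the transcript is missing. The size of the fall also depended on the offset, at -2.38 with the smaller offset (0.02 of the trimmed mean) and -1.65 with the larger one (0.3 of it) on 97948_at, and at -2.07 and -1.21 on 161858_f_at.

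Neither relative of Rb1 passed the test in livers without it. Rbl1, whose product shares the pocket with the retinoblastoma protein and can bind many of the same partners, read 881.0, 883.2 and 849.2 in Rb null embryos and 900.9, 804.3 and 821.3 in wild type embryos. The wild type range encloses the Rb null range. The difference was 0.05 ± 0.07 (adjusted p = 0.66), with a 95% interval from -0.11 to 0.20. Rbl2, the pocket protein gene typical of resting cells, was dim throughout, at 90.7, 113.8 and 98.3 in Rb null embryos and 93.7, 98.5 and 88.7 in wild type embryos. It lay below the filter in all 6 livers, and the fit without a filter gave 0.07 ± 0.13 (95% interval -0.23 to 0.36, adjusted p = 0.81).

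Among the activating E2Fs, E2f1 had 2 probe sets, and neither passed the test. On 102963_at it read 428.9, 389.8 and 424.3 in Rb null embryos and 432.1, 430.7 and 431.0 in wild type embryos. The wild type embryos were almost equal, with a coefficient of variation of 0.171% against 5.16% in Rb null livers, so that all Rb null values fell just below them. The difference was only -0.05 ± 0.08 (95% interval -0.23 to 0.12, adjusted p = 0.67). The second E2f1 probe set, 161427_f_at, read 328.8, 353.2 and 380.5 in Rb null and 333.4, 418.3 and 348.9 in wild type embryos. These ranges overlap, at -0.04 ± 0.10 (95% interval -0.28 to 0.20, adjusted p = 0.82).

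E2f3, the other activator measured, was dim. Its probe set 93405_at read 107.3, 138.5 and 141.6 in Rb null embryos and 98.0, 113.7 and 115.5 in wild type embryos. The highest 2 values are both from Rb null livers, but the ranges overlap. In the fit without a filter the difference was 0.17 ± 0.14 (95% interval -0.16 to 0.49, adjusted p = 0.54), against 5.88% of all 12422 probe sets called higher and 3.39% lower in that fit. E2f5, whose product is a repressive E2F that works with the other pocket proteins, read 398.8, 427.4 and 469.2 in Rb null embryos and 361.4, 460.6 and 396.1 in wild type embryos. Its ranges overlapped over most of their length, at 0.08 ± 0.10 (95% interval -0.16 to 0.32, adjusted p = 0.63).

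E2f8, a repressor that E2F activators are known to induce in S phase, was lower on 1 of its 2 probe sets. Probe set 103204_r_at read 1013.7, 1148.0 and 979.1 in Rb null embryos, against 1329.7, 1318.6 and 1193.5 in wild type embryos. The groups are separate by a narrow margin, and the change was -0.28 ± 0.08 (95% interval -0.46 to -0.10, adjusted p = 0.036). Of all tested probe sets, 8.39% fell by more. The other probe set, 103203_f_at, which the annotation gives from the same source sequence, read 1444.2, 1548.4 and 1217.9 in Rb null and 1745.7, 1335.1 and 1575.7 in wild type embryos. Its ranges overlap, at -0.14 ± 0.11 (95% interval -0.40 to 0.12, adjusted p = 0.43). The E2f8 call was lost in 6 of 15 alternatives. Without a filter the adjusted p was 0.062 and without an intensity trend 0.058. It was lost as well on leaving out Rb null embryo 1 or 3 or wild type embryo 1 or 2 (adjusted p of 0.088 to 0.11), and over all 15 alternatives the adjusted p ranged from 0.0061 to 0.11. The change itself stayed negative throughout, from -0.41 to -0.24.

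Tfdp1, which encodes the main DP partner of the E2Fs, was the member with the clearest fall besides Rb1. Its brightest probe set, 101959_r_at, read 3467.1, 3609.4 and 3701.4 in Rb null embryos, against 4639.5, 5280.3 and 4406.0 in wild type embryos. Every Rb null liver was below every wild type liver, at between 72.6% and 77.5% of the wild type mean. The change of -0.40 ± 0.07 (95% interval -0.57 to -0.24, adjusted p = 0.0068) was exceeded downward by 2.96% of all tested probe sets. It remained past the threshold in all 15 alternatives, with values from -0.54 to -0.28 and adjusted p values from 0.0014 to 0.033.

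The other Tfdp1 probe sets gave smaller differences. Probe set 101958_f_at, annotated from the same source sequence as 101959_r_at, read 1764.4, 1959.1 and 1929.9 in Rb null and 2246.3, 1967.9 and 2257.0 in wild type embryos. The groups do not overlap, but Rb null embryo 2 and wild type embryo 2 lie close together. The difference was -0.19 ± 0.07 (95% interval -0.35 to -0.02, adjusted p = 0.098). It did not pass, except after median scaling (-0.32, adjusted p = 0.025) and without wild type embryo 2 (-0.25, adjusted p = 0.042). The dim probe set 97565_r_at, made from another source sequence, read 201.0, 179.1 and 193.3 in Rb null and 172.7, 192.1 and 188.7 in wild type embryos. Its ranges overlap, at 0.04 ± 0.10 (95% interval -0.20 to 0.28, adjusted p = 0.82). That interval lies apart from the change of -0.40 on 101959_r_at, but the scale understates the change of so dim a probe set. The Tfdp1 call rests on the brightest of its probe sets, while 101958_f_at was lower without passing.

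**Figure D2:**
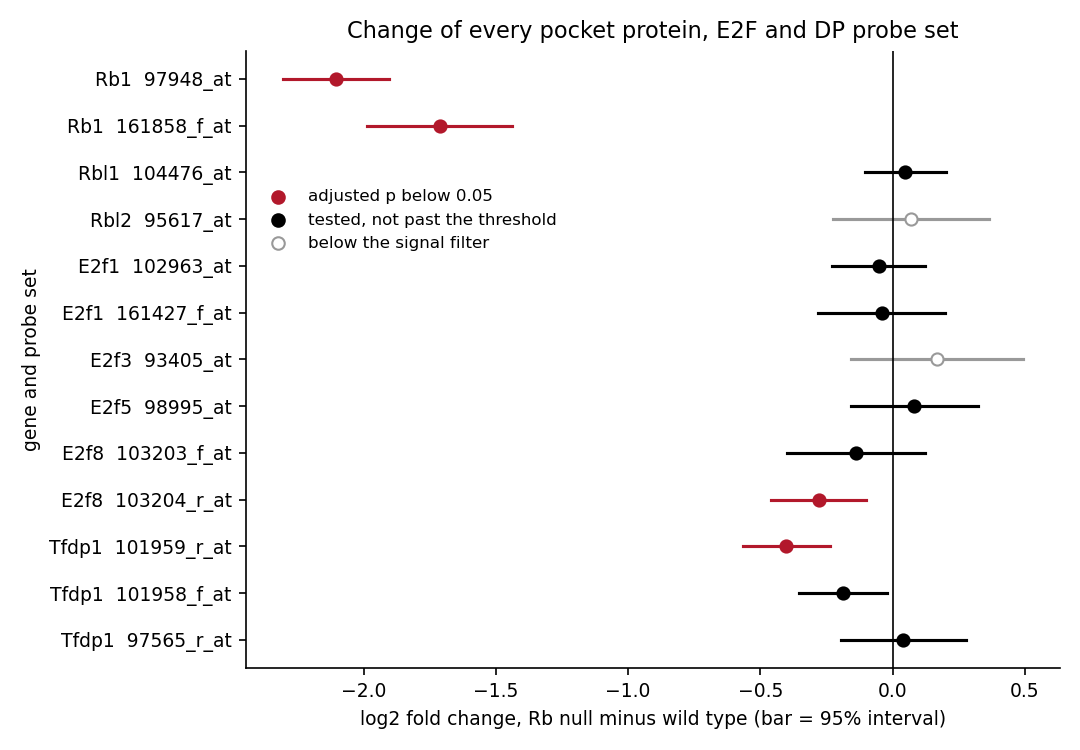
Log2 fold change, Rb null minus wild type, of each member probe set with its 95% interval. Filled red points passed the test (both Rb1 probe sets, E2f8 103204_r_at and Tfdp1 101959_r_at), black points did not, and open grey points lay below the signal filter. Intervals of the 2 E2f1 probe sets, Rbl1, E2f5 and Tfdp1 97565_r_at all include 0.

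Probe sets whose name ends in _f_at hold probes that can bind related transcripts, and those in _r_at were designed under relaxed rules. All E2f8 and Tfdp1 probe sets and the second ones of Rb1 and E2f1 carry such a suffix, while 97948_at of Rb1 and those of Rbl1, Rbl2, E2f3 and E2f5 do not. Spread between embryos was small for most members. The coefficient of variation among Rb null embryos ranged between 2.18% for Rbl1 and 17.9% for the dim Rb1 probe set 161858_f_at, and among wild type embryos between 0.171% and 13.3%. Bright probe sets leaned lower on these arrays, as the plot of change against mean signal shows, and cyclic loess normalization, which removes that slope, changed Tfdp1 101959_r_at to -0.28 (adjusted p = 0.032) and E2f8 103204_r_at hardly at all (-0.28, adjusted p = 0.041).

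**Figure D3:**
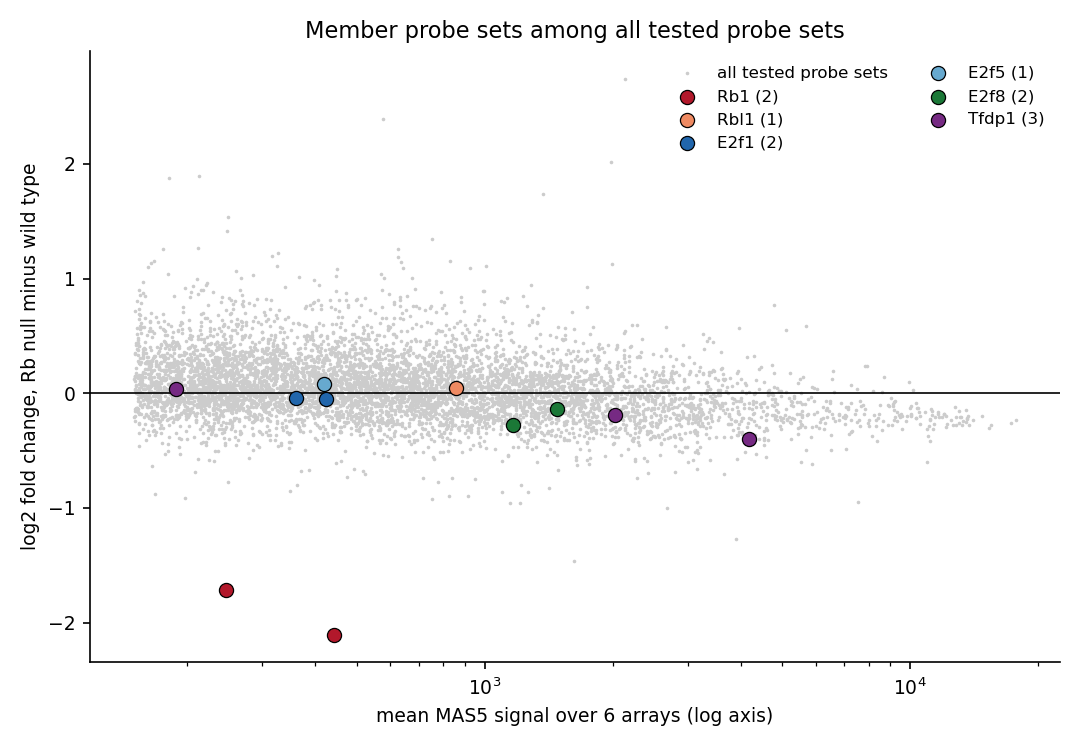
Log2 fold change (Rb null minus wild type) against mean MAS5 signal (log axis) for all 6793 tested probe sets in grey and the 11 tested member probe sets in colour, with the number of probe sets per gene in the legend. The 2 Rb1 probe sets lie far below the cloud, and the others lie within it, the brightest Tfdp1 probe set near its lower edge.

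E2F target genes leaned lower in livers without Rb1. Of 44 genes in the list, 36 were on the array and 32 were tested, of which 10 fell, 2 rose and 20 did not pass, against 9.50% of all tested genes called lower and 13.1% called higher. The median of the list was -0.20, against 0.02 over all tested genes, and 26 of the 32 changes were below 0. After median scaling 18 fell and 1 rose, with 1093 genes lower and 366 higher over the array, against 501 lower and 690 higher as deposited. Counts of lower genes in the list dropped to 5 without Rb null embryo 2 and to 5 without wild type embryo 3. Lower genes over the array numbered 294 and 258 in these fits. The erythroid markers fell in the same livers, with 5 of 9 lower, and their part in this was not tested.

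The largest change of the list was that of Ccna2, a cyclin of S and G2 phase, which read 2438.3, 2591.6 and 3052.0 in Rb null and 3378.6, 3717.7 and 4119.4 in wild type embryos (-0.47 ± 0.10, adjusted p = 0.013). Without Rb null embryo 2 its adjusted p was 0.051. Rrm2, the small subunit of ribonucleotide reductase, read 2153.9, 2252.4 and 2129.0 in Rb null embryos, against 2895.6, 2761.6 and 2827.8 in wild type embryos (-0.37 ± 0.05). Both genes were lower in every Rb null liver than in any wild type liver. Mcm5, part of the replicative helicase, fell by 0.33 ± 0.06 (adjusted p = 0.0066), a call lost on averaging its probe sets (-0.29, adjusted p = 0.13). Lig1, the replicative DNA ligase, fell by 0.35 ± 0.06 (adjusted p = 0.0045), but averaging its probe sets gave 0.00 (adjusted p = 0.99). Apaf1, the core protein of the apoptosome, rose to 610.3, 606.3 and 617.1 in Rb null embryos, against 481.0, 405.3 and 440.0 in wild type embryos (0.43 ± 0.08, adjusted p = 0.0082). The other gene that rose was the progenitor transcription factor gene Myb, named after its value was seen (0.26 ± 0.07, adjusted p = 0.031), and this call was lost in 9 alternatives, among them median scaling (0.12, adjusted p = 0.32).

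**Figure D4:**
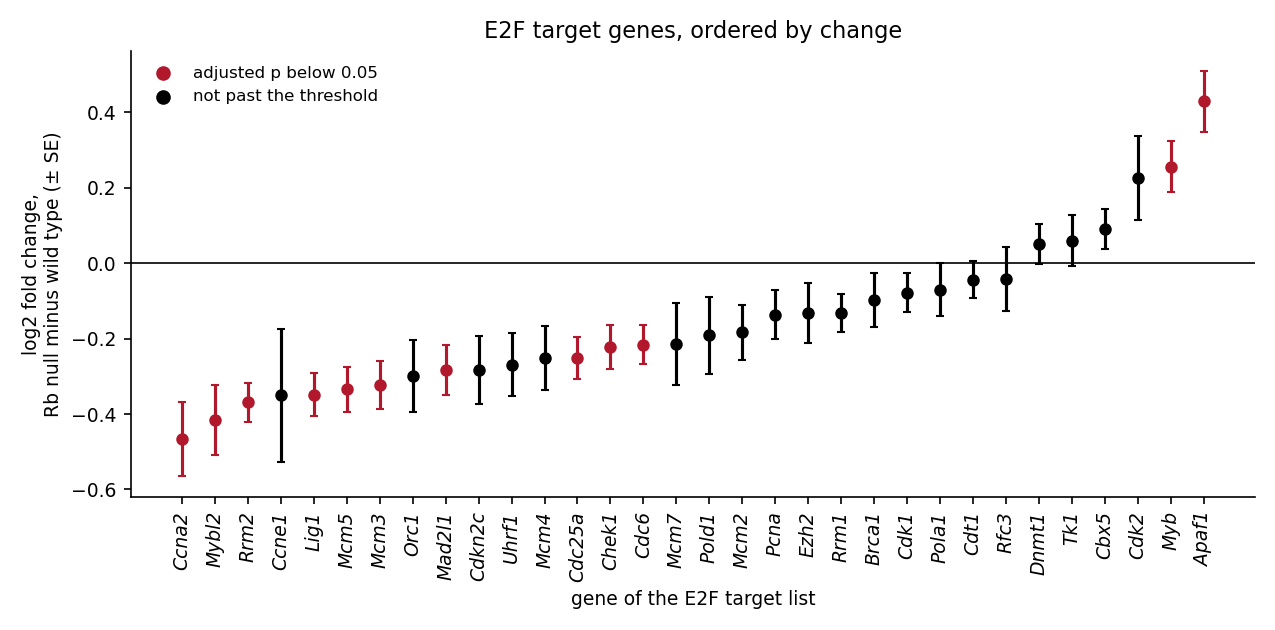
Log2 fold change (Rb null minus wild type, ± SE, n = 3 embryos per genotype) of the 32 tested genes of the E2F target list, ordered by change, in red where the adjusted p was below 0.05. The red points are 10 genes below 0 and Myb and Apaf1 above it.

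An E2F word in the promoter window was common in this list, and genes with and without one were among those that fell. Of 36 list genes with a listed window 18 held one, against 2.60% of all 27025 genes. Among tested genes with a window, 16 of 30 in the list held one, against 5.38% of all 4297. Of the tested list genes with a word, 5 of 16 fell and none rose (median -0.20), and of those without one 4 of 14 fell and 2 rose (median -0.16). Over the whole array, 13.0% of 231 tested genes with a word were lower and 9.52% higher, with a median of -0.01. Tested genes without a word numbered 4066, of which 9.47% were lower and 13.0% higher, with a median of 0.02. These counts and medians are descriptions, and the difference between the groups was not tested.

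Genes that act with or upon the pocket proteins were taken as 3 further lists, to be read against the 9.50% of all tested genes called lower and 13.1% called higher. The lists share genes with each other and with the E2F target list. The calls of Mybl2 and Cdc25a given below were already counted among the E2F target genes. Of the MuvB and DREAM complex, which represses cell cycle genes together with Rbl1 or Rbl2 and activates them with Mybl2, 5 of 8 genes were on the array and 4 were tested. Of these only Mybl2 passed the test, reading 779.6, 611.4 and 647.7 in Rb null and 933.8, 876.5 and 944.9 in wild type embryos (-0.41 ± 0.09, adjusted p = 0.016). Its values were separate by genotype. Averaging its probe sets gave -0.14 (adjusted p = 0.42), and the call did not survive leaving out Rb null embryo 2, wild type embryo 1 or wild type embryo 3 (adjusted p of 0.051 to 0.055). E2f2, E2f4 and E2f7 have no single-symbol probe set on the array and were not analysed here.

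Of 24 kinases, cyclins and inhibitors that set the phosphorylation of pocket proteins, 16 were tested, of which 2 fell, 1 rose and 13 did not pass (median -0.08). Over all tested genes 9.50% were lower and 13.1% higher, with a median of 0.02. Cdc25a, a phosphatase that activates cyclin-dependent kinases, fell by 0.25 ± 0.06 (adjusted p = 0.016). Cdk4, a kinase that phosphorylates the retinoblastoma protein, fell by 0.24 ± 0.06 (adjusted p = 0.022), but 8 alternatives ended this call, among them averaging its probe sets (-0.0093, adjusted p = 0.96) and cyclic loess normalization (-0.12, adjusted p = 0.12). Cdkn1c, an inhibitor of these kinases, rose by 0.25 ± 0.05 (adjusted p = 0.015), but by 0.11 after median scaling, where it did not pass (adjusted p = 0.26). The Cdc25a call ended on averaging its probe sets (-0.13, adjusted p = 0.29). It also ended when Rb null embryo 2 was left out, at an adjusted p of 0.051, and when wild type embryo 3 was, at 0.062.

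Among 14 tested partners of pocket proteins, 2 fell and 2 rose, with a median of 0.03 and 10 not past the threshold, again beside 9.50% lower and 13.1% higher over all tested genes. Smarca2, a chromatin remodelling ATPase, read 277.2, 330.0 and 210.7 in Rb null and 170.5, 153.3 and 148.9 in wild type embryos (0.62 ± 0.15, adjusted p = 0.020). Id2, a helix-loop-helix inhibitor that binds the retinoblastoma protein, rose by 0.30 ± 0.08 (adjusted p = 0.025). Pa2g4, a growth-related protein that also binds it, fell by 0.32 ± 0.08 (adjusted p = 0.028), and so did Rbbp6, a ubiquitin ligase named for that binding (-0.30 ± 0.06, adjusted p = 0.015). None of these 4 calls held in all alternatives. Leaving out Rb null embryo 2 ended each of them (adjusted p values of 0.067 for Smarca2, 0.084 for Id2, 0.062 for Pa2g4 and 0.052 for Rbbp6), and the mean of the Rbbp6 probe sets was 0.03 (adjusted p = 0.83). Hdac1, a deacetylase recruited by pocket proteins, had the smallest change of the 14. It was level at 1036 ± 27.9 in Rb null livers and 1036 ± 34.2 in wild type livers.

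The nearest genes on either side of Rb1 were looked at to see how far the loss of signal reached along chromosome 14. Of the 5 nearest genes on the array on each side, 8 were tested, and 1 fell and 2 rose, where 9.50% of all tested genes were lower and 13.1% higher. Itm2b, whose start lies 0.169 Mb from that of Rb1, read 2771 ± 30.3 in Rb null livers and 2553 ± 230.3 in wild type livers (0.12 ± 0.07, adjusted p = 0.26). Sucla2, a citric acid cycle enzyme subunit at 0.360 Mb, read 959.7 ± 15.6 in Rb null livers and 1027 ± 58.3 in wild type livers (-0.09 ± 0.06, adjusted p = 0.34). The closest measured gene on the other side, Fndc3a at 0.655 Mb, was higher at 378 ± 47.2 in Rb null livers and 259 ± 6.60 in wild type livers (0.46 ± 0.10, adjusted p = 0.016). None of these 3 passed the test downward. The Fndc3a call ended when Rb null embryo 1 was left out, at an adjusted p of 0.051, and when Rb null embryo 2 was, at 0.055.

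Farther out, Xpo7, which encodes a nuclear exportin of maturing red cells and starts 2.53 Mb from Rb1, read 2257 ± 107 in Rb null livers and 5522 ± 269 in wild type livers (-1.27 ± 0.06, adjusted p = 1.8e-05), and its second probe set was lower too. Dok2, which starts 2.43 Mb away and overlaps Xpo7 in the gene table, did not pass (0.29 ± 0.12, adjusted p = 0.11) except without wild type embryo 2 (0.40, adjusted p = 0.033). The actin bundling gene Lcp1 at 1.94 Mb rose (0.39 ± 0.07, adjusted p = 0.0090), although not when its probe sets were averaged (0.14, adjusted p = 0.48) or after median scaling (adjusted p = 0.0504). Tpt1 (-0.18 ± 0.06, adjusted p = 0.053) and Gtf2f2 (-0.22 ± 0.14, adjusted p = 0.29), at 2.65 Mb and 2.70 Mb, did not pass, and Gfra2 and Gm34703 lay below the filter. Tpt1 passed downward after median scaling (-0.31, adjusted p = 0.010), with the stricter filter (adjusted p = 0.045) and on dropping Rb null embryo 3 (adjusted p = 0.046), but read 0.05 after quantile normalization. Distances are between gene starts as the gene table gives them.

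**Figure D5:**
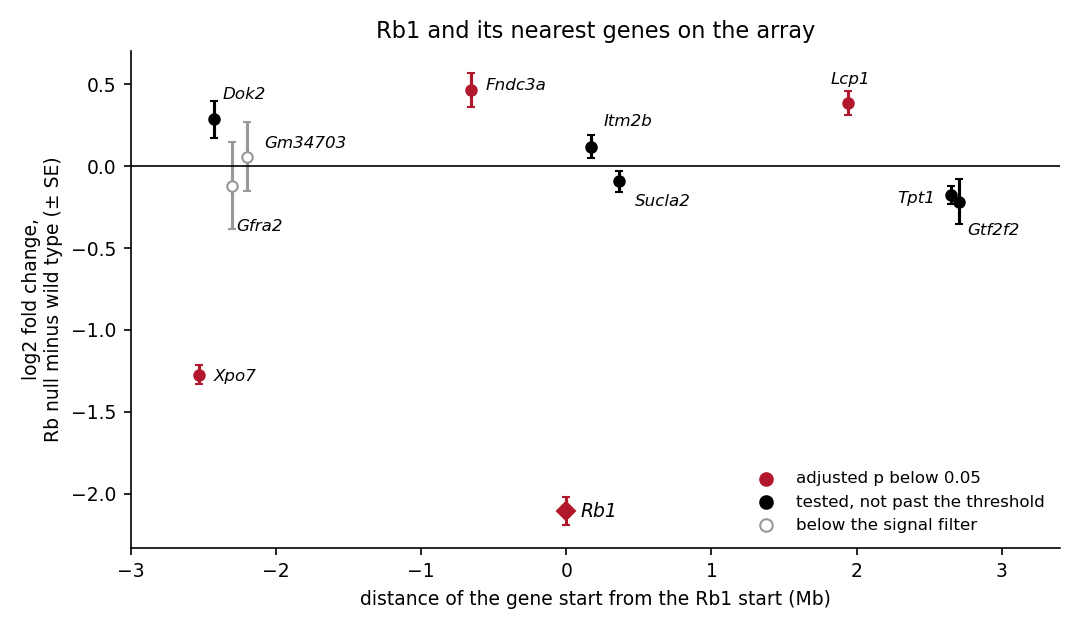
Log2 fold change (Rb null minus wild type, ± SE) of Rb1 (diamond) and of the 5 nearest genes with a probe set on each side, against the distance of their start from that of Rb1 in Mb. Rb1 at -2.10 and Xpo7 at -1.27 lie far below the others, and the 3 genes nearest to Rb1 lie between -0.09 and 0.46.

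It was then asked which tested genes had profiles most like those of Rb1 and Tfdp1, by the root mean square difference between mean-centred log2 values over the 6 embryos. For Rb1 the nearest of 5267 genes were Bpgm, the bisphosphoglycerate mutase of red cells (difference 0.34), Xpo7 (0.43) and Irgm2, an immunity-related GTPase (0.58). No gene came close to the Rb1 profile, since none fell as far. Bpgm read 843 ± 62.9 in Rb null livers and 2403 ± 136 in wild type livers. For Tfdp1 on 101959_r_at the nearest were Armc10 (0.03), the erythroid repressor gene Klf3 (0.04) and the phosphatase gene Acp1 (0.04), with changes of -0.39 ± 0.09, -0.41 ± 0.07 and -0.37 ± 0.07. Over the embryos, these 3 differed from Tfdp1 by a few hundredths on the log2 scale in root mean square. They were picked as the closest of 5267 genes, and the likeness spans only 6 arrays of 2 genotypes. The Armc10 call was lost without Rb null embryo 1 or 2, and those of Klf3 (-0.21, adjusted p = 0.058) and Acp1 (-0.20, adjusted p = 0.0998) on averaging their probe sets.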

How the data were processed

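Signals of 6 arrays were used, 1 per embryo. Per the labels, the authors computed with MAS5 the signal values that they deposited, whose version the labels do not state. The values are linear, and the 2% trimmed mean of each array is 500.2, so the authors had scaled the arrays. Of 12488 rows, 66 array controls were left out, 10833 probe sets had 1 gene symbol, 396 several and 1193 none. Members were matched by platform symbol, the rest through the RefSeq gene table (GRCm38.p6), and a listed gene stands for its brightest probe set.

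Log2 of the signal plus 0.1 of the trimmed mean was fitted with limma 3.58.1 (R 4.3.3) with an intensity trend, for probe sets with a mean above 0.3 of the trimmed mean, and p-values were adjusted by Benjamini-Hochberg over 6793 probe sets. Dim members come from the fit without a filter. The procedure was tested on simulated data. The number of arrays limits the precision. Replicates are separate embryos.

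The text names all member probe sets, up to 6 called genes per list with the largest change, 5 neighbours on each side of Rb1 and 3 genes of like profile for Rb1 and for Tfdp1. Other genes, such as Myb and Hdac1, are named outside this rule. Members and lists were chosen with earlier results of these data known. Alternatives were 2 other offsets, no filter and a stricter one, quantile normalization, median scaling, no trend, the replicate number as a block, averaging a gene's probe sets and leaving out each embryo. Cyclic loess normalization was added with the data known.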

Additional observations from a re-analysis of the deposited data

How the results depend on the processing

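Both Rb1 probe sets and Tfdp1 101959_r_at kept their direction and their side of the threshold in every alternative that tested them (14, 14 and 15). Counts moved with the scaling and the filter. Median scaling, which moved the median log2 fold change of the tested probe sets to -0.10, against 0.02 as deposited, gave 1093 lower and 366 higher genes, against 501 and 690 as deposited, so changes are best read relative to that shift. It gave 18 lower and 1 higher E2F target genes, 2 lower genes of the MuvB and DREAM complex, 5 lower and 0 higher kinases, cyclins and inhibitors, and 4 lower and 1 higher pocket protein partners. With it Rbl1 read -0.082, E2f5 -0.040, Tfdp1 97565_r_at -0.068 and Itm2b -0.015. After quantile normalization E2f5 read -0.010, Tfdp1 97565_r_at -0.068 and Tpt1 0.052, and after cyclic loess Tfdp1 97565_r_at read -0.073 and Tpt1 0.053. None of these reversed values passed the test. The stricter filter of 500.2 left 2 lower member probe sets, both without Rb1, whose mean signal lay below it, and gave 428 higher genes and 1 higher partner. Without a filter 1 E2F target gene was higher, and 1 partner was lower and 0 higher. The array then had 348 lower and 555 higher genes. Without an intensity trend 1 E2F target gene was higher, 1 kinase, cyclin or inhibitor lower, and 1 partner lower and 1 higher. Over the array 357 genes were lower and 654 higher in that fit. On averaging a gene's probe sets 1 E2F target gene was higher, 0 genes of the MuvB and DREAM complex lower, 0 kinases, cyclins and inhibitors lower and 2 higher, and 0 partners lower, and Lig1 read 0.0025 and Rbbp6 0.034. Apart from fewer probe sets or arrays where a setting removes them, the cause of these moves was not tested.

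Leaving out each embryo gave 3 to 4 lower member probe sets, 258 to 429 lower and 407 to 552 higher genes, 5 to 10 lower and 1 to 2 higher E2F target genes, 0 to 1 lower genes of the MuvB and DREAM complex, 0 to 3 lower kinases, cyclins and inhibitors, and 0 to 2 lower and 0 to 2 higher partners. E2f1 161427_f_at read 0.00465 without Rb null embryo 1 and 0.046 without wild type embryo 2. The labels do not say whether same-numbered embryos were paired. Deviations of same-numbered embryos correlated with r of -0.06, 0.05 and 0.27, the last being the highest among all pairs. Rb null embryo 1 correlated best with wild type embryo 2 (0.22). With 3 embryos per genotype these values cannot decide on pairing. With the replicate block there were 4 lower member probe sets, 488 lower and 639 higher genes and 11 lower E2F target genes, and it changed no call of a member or of another named gene.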
